A study of Mus musculus with 5 samples.

Results

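Regulatory T cell genes and Penk were followed through single cells of the mouse aortic arch. The set holds 9 of the 26189 genes in the count tables: Foxp3, Il2ra, Ctla4, Ikzf2, Tnfrsf4, Tnfrsf9, Tnfrsf18, Icos and Penk. The 9 were picked by name, and all have a column in both tables. The measured values behind the choice were earlier results of these data, above all Penk's counts in T cells of the 2 pools, so Penk's difference between the pools is a description. The cells were live CD45+ cells, CD45 being the surface protein of blood-derived cells, sorted from digested aortas of female mice and captured together as 2 tagged pools on the BD Rhapsody system. The pool labelled wild-type is C57BL/6J. The pool labelled Saa3-/- is C57BL/6N-Saa3tm1.1(KOMP)Vlcg/MbpMmucd, labelled as lacking Saa3, the gene of the acute-phase protein serum amyloid A3. Atherosclerosis had been induced in both pools from 12 weeks of age, and both had eaten a Western diet for 18 weeks. No mice without this induction and diet are among these cells, and the number of animals in a pool is not given in the sources used here. The other 4 samples of the series, cultured macrophages, were not analysed here.

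Regulatory T cells are CD4+ T cells that restrain other lymphocytes, and in atherosclerotic arteries they are known for limiting inflammation. Foxp3 is their lineage factor, and Ikzf2 (Helios) is a zinc-finger factor that many of them share. Il2ra is the high-affinity chain of the interleukin-2 receptor. Ctla4 and Icos are the inhibitory and the stimulatory relatives of CD28. Tnfrsf4 (OX40), Tnfrsf9 (4-1BB) and Tnfrsf18 (GITR) are costimulatory receptors of the TNF receptor family, which activated T cells of other kinds also carry. Penk encodes proenkephalin, the precursor that proteases cleave into the opioid peptides called enkephalins, and it has been described in tissue regulatory T cells and in fibroblasts.

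RefSeq promoter windows on GRCm38.p6 were at hand for 6 of the 9 genes, as 8 windows. The 250 bases before a start are shown for Foxp3, the gene that defines the cells, and for Tnfrsf9 and Tnfrsf4, the receptors with the largest ratios between the pools. The Foxp3 windows are chrX:7579426-7579675 and chrX:7580233-7580482. Those shown for Tnfrsf9 (its second start) and Tnfrsf4 are chr4:150927749-150927998 and chr4:156013445-156013694, and all 4 are on the plus strand. Capitals mark matches on either strand to AP-1 (TGANTCA), NF-kB (3 G, any 2 bases, then TTTCC), STAT (TTCNNNGAA), RUNX (TGTGGT), to AGATAA for GATA factors, and to the TATA box, TATAAA.

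Foxp3 first start: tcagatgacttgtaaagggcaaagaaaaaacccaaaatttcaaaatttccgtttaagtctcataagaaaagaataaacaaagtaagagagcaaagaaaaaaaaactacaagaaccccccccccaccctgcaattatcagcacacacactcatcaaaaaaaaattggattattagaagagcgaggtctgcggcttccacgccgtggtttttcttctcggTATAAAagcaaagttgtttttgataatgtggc
Foxp3 second start: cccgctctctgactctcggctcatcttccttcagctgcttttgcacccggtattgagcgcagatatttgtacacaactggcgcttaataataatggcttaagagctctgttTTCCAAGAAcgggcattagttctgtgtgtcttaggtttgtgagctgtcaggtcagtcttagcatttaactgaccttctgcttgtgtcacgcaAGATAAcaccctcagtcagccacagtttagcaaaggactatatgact
Tnfrsf9 second start: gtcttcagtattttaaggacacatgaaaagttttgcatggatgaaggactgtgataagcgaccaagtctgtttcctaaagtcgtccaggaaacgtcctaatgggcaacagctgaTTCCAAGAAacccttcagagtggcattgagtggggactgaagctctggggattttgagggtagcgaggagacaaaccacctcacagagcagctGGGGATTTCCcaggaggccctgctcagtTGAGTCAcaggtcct
Tnfrsf4 start: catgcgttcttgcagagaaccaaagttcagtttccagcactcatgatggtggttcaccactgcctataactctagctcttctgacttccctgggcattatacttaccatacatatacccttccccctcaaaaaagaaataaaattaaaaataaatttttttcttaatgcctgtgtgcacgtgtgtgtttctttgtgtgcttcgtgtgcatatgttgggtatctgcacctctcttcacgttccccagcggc

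The second Tnfrsf9 window held matches to AP-1, NF-kB and STAT, at 15, 43 and 136 bases before the start. The first Tnfrsf9 window, chr4:150919905-150920154, is not shown and held none of the marked motifs. Of all 32851 windows in the RefSeq table, 6.75% held an AP-1 match, 1.41% an NF-kB match and 7.02% a STAT match. The first Foxp3 window held a TATA match 32 bases before its start, which 12.4% of windows held. The second held a STAT match at 139 bases and a GATA match at 47 bases, the latter found in 9.99% of windows. The Tnfrsf4 window held none of the marked motifs, and no shown window held the RUNX letters, found in 14.0% of windows. The short NFAT core GGAAA, not capitalised, lay in all 8 windows and in 55.6% of the table's windows. It overlaps the STAT match of the second Foxp3 window and the NF-kB match of the second Tnfrsf9 window. Each match is a string of letters in a window, and no binding was measured.

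On GRCm38 (GENCODE M21) Ctla4 (chr1:60887000-60915832) and Icos (chr1:60977927-61000320) are neighbours, as are Tnfrsf4 (chr4:156013843-156016612) and Tnfrsf18 (chr4:156026164-156028895). Tnfrsf9 lies at chr4:150914562-150946102, Foxp3 at chrX:7573644-7595245, Il2ra at chr2:11642807-11693193, Ikzf2 at chr1:69531214-69687245 and Penk at chr4:4133531-4138819. Ikzf2 and Penk are on the minus strand and the others on the plus strand. Foxp3 overlaps Flicr on the same strand, and 14.7% of its 50-base stretches also lie in Flicr, which had 2 molecules in all cells. The span of Ctla4 holds Rpl18-ps1, a processed pseudogene of a ribosomal protein gene on the same strand that has no column of its own.

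After cells with over 25% mitochondrial molecules were left out, 833 cells of the pool labelled wild-type and 823 of the pool labelled Saa3-/- remained, of 889 and 854. Their median depths were 6415 and 4698 molecules, and no cell number occurred in both pools. The targeted gene goes against the labels: Saa3 had 148 CPM (a gene's molecules scaled to a summed count of 1e+06) in the pool labelled wild-type and 242 CPM in the pool labelled Saa3-/-. Where the deletion lies relative to the counted ends of the transcript is not given in the sources used here, so directions are given by label. Of 22 clusters, those named CD8, gamma-delta, regulatory and other T-like held 379 cells (184 and 195), called T-cell-like from here on. The thymocyte-like clusters, 94 cells, were kept apart. Although CD45+ cells were sorted, 152 fibroblast-like and 171 smooth-muscle-like cells remained. Molecules of other cells were common among the 369 T-cell-like cells without Foxp3, of which 293 held Acta2, a smooth muscle gene, and 257 held Dcn, a fibroblast gene. Each pool is 1 sample, so the pools cannot be tested against each other. Intervals are exact 95% intervals and cover counting error only.

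Foxp3 was rare. It gave 21 molecules in 11 of 1656 cells, and 10 of those 11 were T-cell-like. In the pool labelled wild-type 8 of 184 T-cell-like cells were positive, 4.35% (1.90 to 8.39%). In the pool labelled Saa3-/- 2 of 195 were positive, 1.03% (0.124 to 3.66%). The intervals overlap, and the median depths were 4246 and 3912 molecules. With each cell thinned to 2000 molecules, which left out 5 and 8 shallower cells, the shares were 2.65% and 0.561%. In macrophage-, B- and dendritic-like cells, which should lack the gene, 0 of 705 cells were positive, which allows a share of up to 0.522%, at a median depth of 6804. The last positive cell was smooth-muscle-like, with 1 Foxp3 molecule, 76 of Acta2 and 0 of Cd3e and Trac. A cell that lacks the transcript and one whose transcript was missed cannot be told apart.

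The 10 Foxp3-positive T-cell-like cells carried most of the other regulatory genes. Each held 3 to 7 of the other 7, with a median of 5, against a median of 2 in the 369 Foxp3-negative cells. Median depths were 4676.5 and 4086 molecules. Ctla4 and Ikzf2 were found in all 10 cells, beside 65.9% and 27.9% of the Foxp3-negative ones. Cd4 was found in 7 of the 10, and Cd8a, Cd8b1, Trdc and Tcrg-C1, markers of CD8 and gamma-delta T cells, in 0. Of 25 markers of B cells, macrophages, fibroblasts, smooth muscle and NK cells, 8 were at 0 in the Foxp3-positive cells, and the summed level of all 25 was 2129 CPM in the Foxp3-positive and 2082 CPM in the Foxp3-negative cells. Among them, Dcn stood at 268 and 299 CPM and Acta2 at 364 and 428 CPM. Cnn1, a smooth muscle gene, was higher in the Foxp3-positive cells, with 5 molecules in 5 of 10 against 37 in 37 of 369, a log2 ratio of 2.24 (0.42 to 3.47). Cd79a, a B cell gene, was found in 4 of 10 and 36 of 369. The part of molecules from other cells was not tested.

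Ikzf2 stood at 1112 CPM in Foxp3-positive and 155 CPM in Foxp3-negative T-cell-like cells, a log2 ratio of 2.85 (2.41 to 3.26). Among the receptors Tnfrsf9 had the largest ratio, 748 against 43.4 CPM or 4.12 (3.51 to 4.69), with 18 of its 39 molecules in 1 cell. Tnfrsf4 followed with 268 against 42.8 CPM, or 2.69 (1.71 to 3.49), on 14 and 72 molecules. These 3 genes separated the cells most. Ctla4 stood at 978 against 364 CPM, or 1.44 (0.99 to 1.84). Il2ra stood at 345 against 166 CPM, or 1.09 (0.28 to 1.74). Il2ra is also high in gamma-delta T-like cells, and with a stricter naming rule that leaves them out its ratio was 3.38. Tnfrsf18, with 5 molecules in the positive cells, had a ratio of 1.14 whose interval includes 0 (-0.65 to 2.29). Icos did not separate the cells, at 326 and 389 CPM, a ratio of -0.21 (-1.04 to 0.44). It was found in 50% and 46.1% of them. With T cells taken by a gate on T cell markers in place of clusters, 813 cells, all 8 ratios were higher and passed 1, with Icos at 1.69 and Ikzf2 at 4.26. That gate also takes cells of other classes, 50 of them fibroblast-like, a class with Foxp3 at 0 and Icos at 13.6 CPM. The part of such cells in the higher ratios was not tested. Penk had a ratio of 2.63, but 1 cell held 22 of its 24 molecules, and the other 9 cells stood at 40.1 CPM. Foxp3-negative cells stood at 75.5 CPM with their own highest cells kept, which held 40, 27 and 12 of 127 molecules. These levels thus give no direction.

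A log2 ratio of 1 was passed by 7 of the 8 other genes, 2 of them on fewer than 100 molecules. Of the 6 with at least 100 molecules 5 did, beside 10.8% of the 3509 genes compared, and their median was 2.04 against 0.06 over all of those genes. Few positive cells make large ratios common. The choice of the 9 genes drew on this contrast, so the counts describe it and support nothing.

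**Figure D1:**
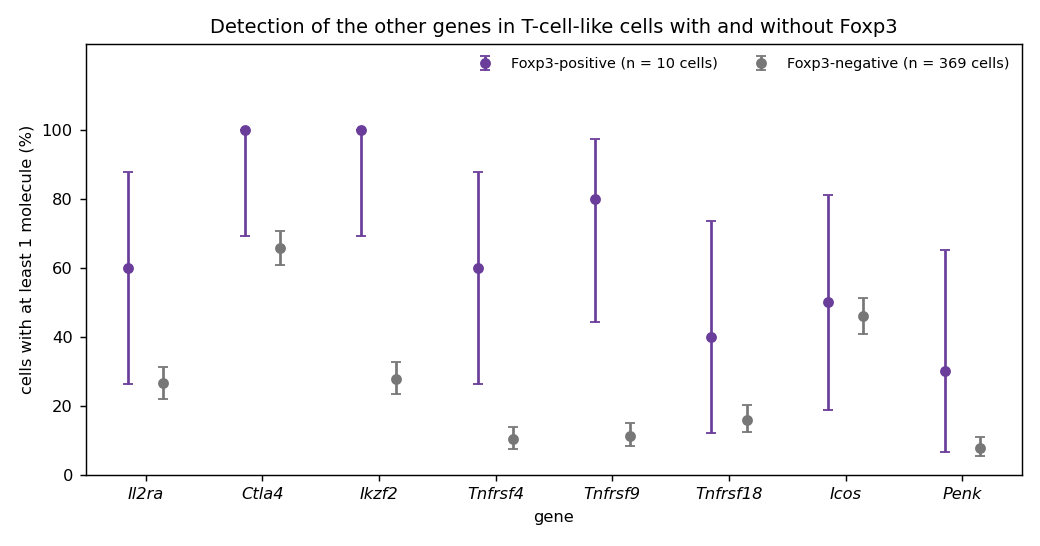
Share of T-cell-like cells with at least 1 molecule of each gene (percent), in 10 Foxp3-positive and 369 Foxp3-negative cells. Points are shares and bars exact 95% binomial intervals. Ctla4 and Ikzf2 are in all 10 Foxp3-positive cells, while the shares for Icos, 50% and 46.1%, lie close together.

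Most of these cells sat in 1 small cluster. It held 19 cells, 18 from the pool labelled wild-type and 1 from the pool labelled Saa3-/-, and among them 9 of the 10 Foxp3-positive T-cell-like cells. The last of the 10, from the pool labelled Saa3-/-, sat in the CD8 T-like cluster with 1 Foxp3, 8 Ctla4, 5 Ikzf2 and 0 Cd8a molecules. The 9 genes were among those clustered. Clustered without them, the group did not separate, and 17 of the 19 cells fell into a CD8 T-like cluster of 161 cells. A cluster almost wholly of 1 pool may be that pool and not a type, so its size is not compared between pools.

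Cell by cell, the 19 were uneven. Foxp3 ran from 1 to 4 molecules in 9 cells and was 0 in the other 10. Ikzf2 and Ctla4 were found in 18 cells each, with medians of 3 and 4 molecules and highs of 16 and 11. These 2 genes were found in cells with and without Foxp3 alike, in 9 of 9 Foxp3-positive and 9 of 10 Foxp3-negative cells. Among T-cell-like cells outside the cluster Ikzf2 was found in 26.4% and Ctla4 in 65.3%, so finding Ctla4 sets the cluster apart less. Tnfrsf4 was found in 13 cells with at most 5 molecules, in 5 of 9 Foxp3-positive and 8 of 10 Foxp3-negative ones. Tnfrsf9 was found in 12 cells with at most 18 molecules, in 7 of 9 and 5 of 10. The receptors thus did not follow Foxp3 from cell to cell in one direction, and with so few molecules a 0 does not show that a cell lacks a transcript. Tnfrsf18 and Icos were found in 10 cells each and Il2ra in 8. Cd4 was found in 14 and Cd8a in 1. The single cell of the pool labelled Saa3-/- had 4 Foxp3, 7 Ctla4, 3 Il2ra and 3 Tnfrsf9 molecules and 0 of Tnfrsf4, Icos and Penk.

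**Figure D2:**
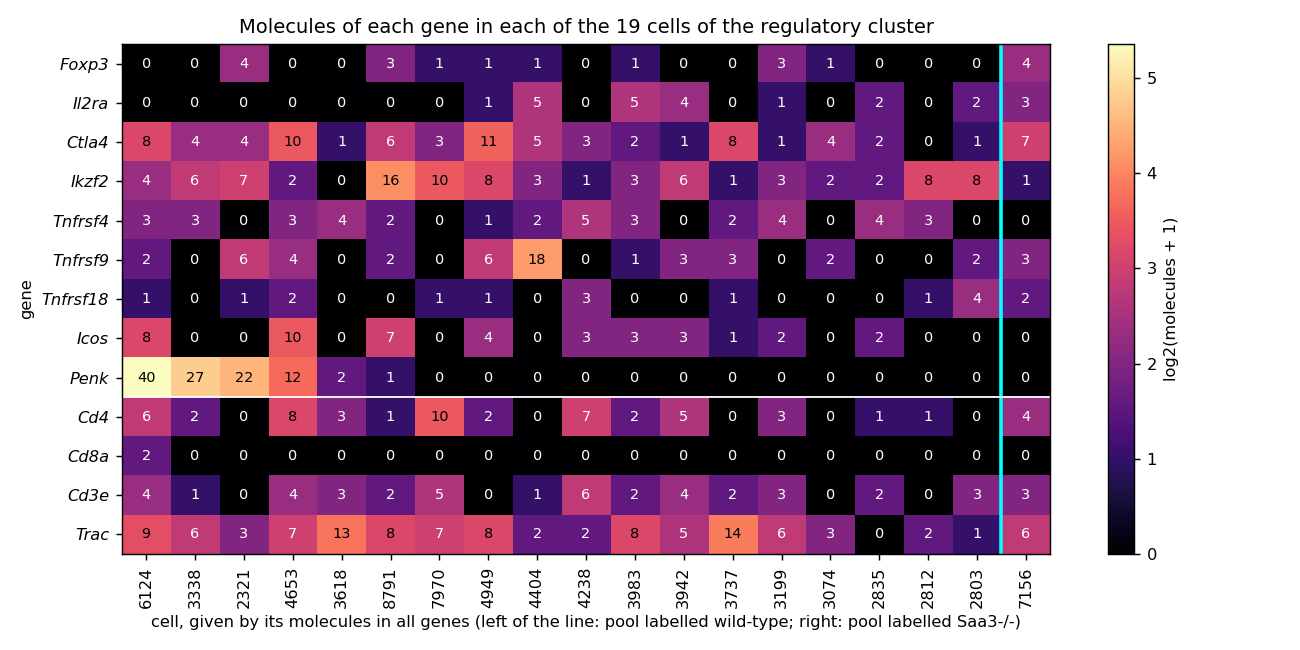
Molecules of each gene (rows) in each of the 19 cells of the regulatory T-like cluster (columns, given by the cell's molecules in all genes), with Cd4, Cd8a, Cd3e and Trac under the white line and the cell of the pool labelled Saa3-/- at the right. Colour is log2(molecules + 1). Penk is at 12 to 40 molecules in 4 cells and at 0 to 2 in the other 15, and 3 of those 4 have no Foxp3 molecule.

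Across classes of at least 10 cells, the regulatory T-like cluster had the highest level of Foxp3, Ctla4, Ikzf2, Tnfrsf4, Tnfrsf9 and Penk, genes that helped to form it. It was not the highest for the other 3. Il2ra was highest in ILC2-like cells, the type 2 innate lymphocytes, at 948 CPM (790 to 1128). Gamma-delta T-like cells, whose leading genes include Il17a, followed at 513 CPM (450 to 583), and the regulatory T-like cluster stood at 274 CPM (174 to 411). These 3 intervals do not overlap. Gamma-delta T-like cells held 39.7% of all 602 Il2ra molecules and the regulatory T-like cluster 3.82%. Macrophage-like cells held 22.4% at a low level of 31.0 CPM, with 28 and 15 molecules in single cells. Icos was highest in gamma-delta T-like cells at 782 CPM (704 to 867), which held 46.3% of its 787 molecules. The regulatory T-like cluster, at 512 CPM (371 to 690), and ILC2-like cells, at 306 CPM (220 to 415), came next with intervals that overlap. Tnfrsf18 was highest in ILC2-like cells at 358 CPM (264 to 475), which overlaps the regulatory T-like cluster at 203 CPM (118 to 324).

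The other genes were shared less. Tnfrsf9 came second in ILC2-like and NK-like cells at 157 and 156 CPM, levels that cannot be ranked. Tnfrsf4 outside the regulatory T-like cluster reached at most 44.8 CPM, in ILC2-like cells, with CD8 T-like cells at 40.9 CPM. Ikzf2 was at 171, 165 and 160 CPM in other T-, gamma-delta T- and thymocyte-like cells, whose intervals overlap. Ctla4 was the exception, since every class held it. In 11 classes outside T cells and thymocytes it ran from 72.1 to 328 CPM and was highest in B-like cells. Over these 11 classes it moved with Rpl18, the parent of the pseudogene inside its span (Pearson's r 0.88, Spearman's rho 0.98, a description over classes that share 1 capture). There were 16.7 to 33.3 Ctla4 molecules per 100 Rpl18 molecules in these classes. The 33.3 came from neutrophil-like cells, 23 cells with Ctla4 at 72.1 CPM, and the next class, B-like cells, stood at 28.6. Gamma-delta T- and thymocyte-like cells lay within that range, at 25.1 and 24.8. Other T-like cells, at 33.2, lay within it only through the neutrophil-like cells. CD8 T-like cells stood at 35.6 and the regulatory T-like cluster at 156. The part of the pseudogene in the Ctla4 counts was not tested.

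**Figure D3:**
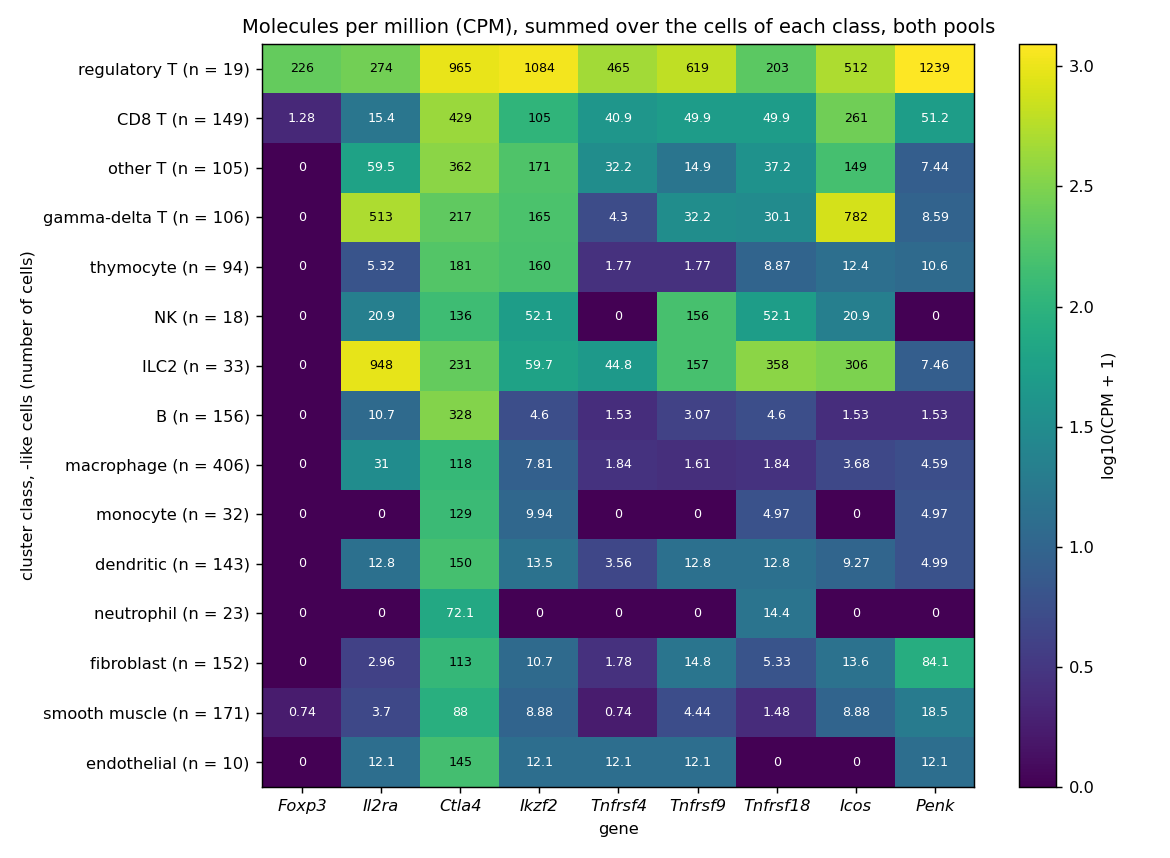
Level of each gene (columns, CPM printed in the cell, colour log10(CPM + 1)) in each class of at least 10 cells (rows), both pools summed. Il2ra and Tnfrsf18 peak in ILC2-like cells at 948 and 358 CPM, Icos in gamma-delta T-like cells at 782 CPM, and Ctla4 is above 72 CPM in every row.

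Penk in T cells lay in a few cells of the pool labelled wild-type. There, 24 of 184 T-cell-like cells held 142 molecules, and 4 cells of the regulatory T-like cluster held 101 of them, 71.1%. Those cells had 40, 27, 22 and 12 Penk molecules at depths of 6124, 3338, 2321 and 4653. Only the cell with 22 also had Foxp3, at 4 molecules. The Foxp3-negative cells of the cluster thus held more Penk, 81 molecules in 4 of 10 cells, than the Foxp3-positive ones, 23 molecules in 2 of 9. Il2ra was at 0 in the 4 cells with at least 10 Penk molecules and was found in 8 of the other 15. Ctla4 was higher in these 4 cells than in the 15 by a log2 ratio of 0.97 (0.23 to 1.66), on 26 and 55 molecules, and Icos by 1.58 (0.60 to 2.50), on 18 and 25, with all 18 in 2 of the 4.

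Over all T-cell-like cells, 3 of the 32 Penk-positive cells held Foxp3, 9.38% (1.98 to 25.02%), against 7 of 347 Penk-negative cells, 2.02% (0.81 to 4.11%). Penk was in 3 of the 10 Foxp3-positive cells, 30% (6.67 to 65.2%), against 29 of 369 Foxp3-negative cells, 7.86% (5.33 to 11.1%). Both shares were thus higher beside the other gene, with intervals that overlap. The receptor that went most with Penk was Tnfrsf4, found in 13 of 32 Penk-positive and 31 of 347 Penk-negative cells, at 137 and 35.0 CPM, a log2 ratio of 1.97 (1.30 to 2.62). Tnfrsf9 followed at 1.14 (0.47 to 1.75). Il2ra went the other way at -1.94 (-2.97 to -1.17), but both genes differed between classes. Il2ra was found in 76.4% of gamma-delta T-like and 6.04% of CD8 T-like cells, and Penk in 3.77% and 12.8%. Ikzf2 at 0.65, Ctla4 at 0.53, Tnfrsf18 at 0.15 and Icos at -0.14 did not pass 1. Of the 5 other genes with at least 100 molecules, Tnfrsf9 passed 1 upwards and Il2ra downwards, beside 3.45% and 5.9% of 3509 genes. Tnfrsf4, with 34 and 52 molecules, was under that minimum. By pool, Tnfrsf4 was in 12 of 24 Penk-positive and 18 of 160 Penk-negative cells of the pool labelled wild-type. In the pool labelled Saa3-/- it was in 1 of 8 and 13 of 187. Il2ra was in 3 of 24 and 57 of 160 cells of the first pool. In the second the direction was opposite, 3 of 8 and 41 of 187, on few Penk-positive cells. The Penk-positive cells were deeper, at a median of 5571.5 against 4056 molecules, and the parts of depth, pool and class were not tested. Outside the regulatory T-like cluster, in 26 Penk-positive cells, Tnfrsf4 stood at 2.15 (1.22 to 3.03) on 19 and 28 molecules, Tnfrsf9 at 1.27 (0.32 to 2.10) on 16 and 44, and Il2ra at -1.70 (-2.72 to -0.92), while Ikzf2 was level at 0.05. Those 26 cells held 47 Penk molecules, and the deepest of them held 6 of the 19 Tnfrsf4 molecules.

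By the number of the 8 regulatory genes found in a T-cell-like cell, Penk had no steady course. It stood at 8.69 CPM in the 33 cells with none, 11.6 with 1, 21.01 with 2, 127 with 3, 46.9 with 4, 233 with 5 and 628 in the 9 cells with 6. The 3 cells with 7 or 8 genes held 1 Penk molecule in all. The high values rest on the 4 cells named above, which have 27 of the 38 molecules at 3 genes, 22 of 25 at 5 and 40 and 12 of 62 at 6. In the pool labelled Saa3-/- Penk was at 18.1 CPM with 2 genes and at 0 with 4, 5 and 6. T-cell-like cells with at least 5 of the 8 numbered 21 of 184 in the pool labelled wild-type, or 11.4% (7.21 to 16.9%). In the pool labelled Saa3-/- they numbered 4 of 195, or 2.05% (0.562 to 5.17%). Of these cells, 13 of the 21 and 1 of the 4 sat in the regulatory T-like cluster, which is almost wholly of 1 pool. Over both pools the median depth was 3583 molecules in cells with none of the 8 genes and 5672 in those with 5. The parts of the cluster and of depth were not tested.

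CD8 T-like cells were a second, weaker source among T cells. Penk was found in 19 of 149, 12.8% (7.86 to 19.2%), against 27 of 705 macrophage-, B- and dendritic-like cells, 3.83% (2.54 to 5.52%), at median depths of 4414 and 6804 molecules. Thinned to 2000 molecules the share was 5.68% in CD8 T-like cells and 0.658% in macrophage-like cells. The pools held 34 molecules in 14 of 75 CD8 T-like cells and 6 molecules in 5 of 74, at median depths of 5066 and 4075. One wild-type cell of 55599 molecules, the deepest T-cell-like cell, held 9.

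Fibroblast-like cells were the other large source. They held 142 of all 355 Penk molecules, 40% (34.9 to 45.3%), and T-cell-like cells held 151, 42.5% (37.3 to 47.9%). Smooth-muscle-like cells held 25 and macrophage-like cells 20. The balance differed between the pools. T-cell-like cells held 60.7% (54.1 to 67.0%) of 234 molecules in the pool labelled wild-type and 7.44% (3.46 to 13.7%) of 121 in the pool labelled Saa3-/-. For fibroblast-like cells the shares were 24.8% (19.4 to 30.8%) and 69.4% (60.4 to 77.5%). Penk was found in 22 of 84 fibroblast-like cells of the first pool and 19 of 68 of the second, 26.2% and 27.9%, so the share of positive cells was nearly level. Its level was 61.1 CPM (46.4 to 79.0) and 114 CPM (90.7 to 141), a log2 ratio of Saa3-/- over wild-type of 0.89 (0.40 to 1.40) that did not pass 1. There 2.44% of 5443 genes passed 1 upwards. Penk was spread more evenly here than in T cells, with at most 16 molecules in a cell. The Penk-positive fibroblast-like cells were deeper, at a median of 12810 against 7504 molecules.

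**Figure D4:**
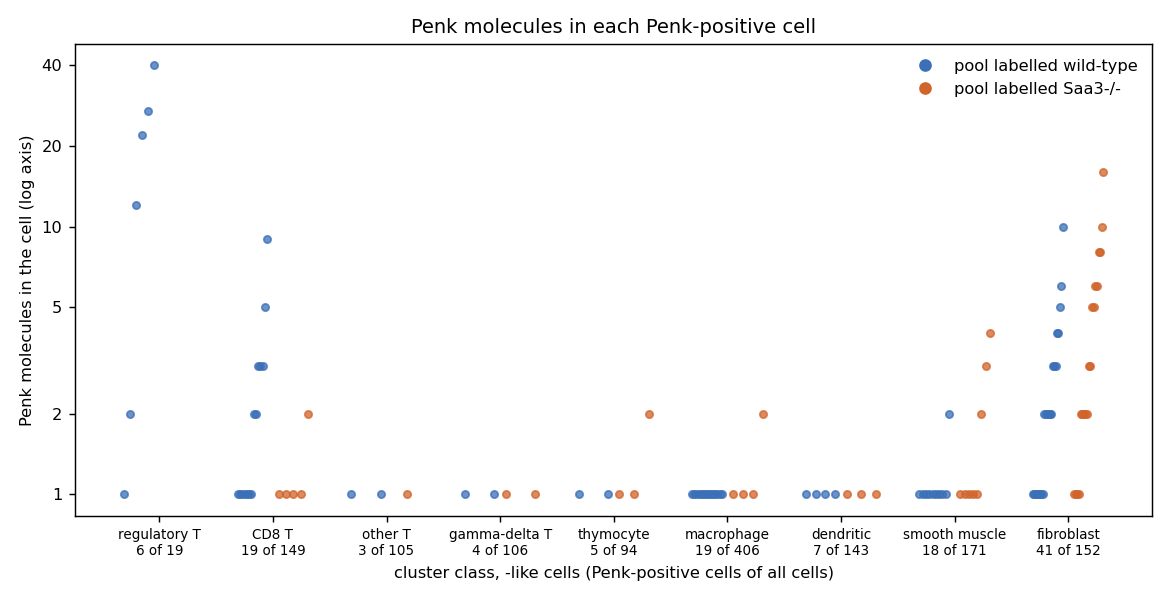
Penk molecules (log axis) in each Penk-positive cell, by class and pool; under each class stands the number of positive cells of all its cells. The 3 highest cells, at 40, 27 and 22 molecules, are regulatory T-like and of the pool labelled wild-type, and fibroblast-like cells of both pools reach 10 or 16.

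Beyond the set, the 10 genes with the largest ratios in Foxp3-positive T-cell-like cells, by the rule given under processing, were led by Il1r2 and Il1rl1. Il1r2, a decoy receptor for interleukin-1, stood at 575 against 21.4 CPM, a log2 ratio of 4.75, in 5 of 10 cells. Il1rl1, the receptor for interleukin-33, stood at 460 against 22.6 CPM or 4.36, also in 5 of 10, with 11 of its 24 molecules in 1 cell. Rel, an NF-kB subunit, was in 9 of 10 Foxp3-positive cells and 167 of 369 others, at a ratio of 2.63, and Rgs16, a regulator of G-protein signalling, in 9 of 10 and 56 of 369, at 2.77. These were the most widely shared. Ttn (3.82), Pmaip1 (2.72) and Itgav (2.49) were found in 5, 8 and 8 of the 10 cells, and 1 cell held 11 of the 22 Ttn molecules. Gm20275, Stx11 and Ets2 rested on 1 cell for 18 of 24, 19 of 34 and 16 of 26 molecules.

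In Penk-positive T-cell-like cells the rule named Tipin, Hells, Dscam, Kif11, Mcm5, Top2a, Pglyrp1, Mcm6, Chst2 and Gzmk, at log2 ratios of 2.04 to 2.78. Tipin, Mcm5, Mcm6 and Top2a are known in DNA replication, and Gzmk is a granzyme of CD8 T cells. Several rested on 1 cell. Top2a had 76 of 120 molecules in 1 cell, and the deepest cell held 31 of 45 for Hells, 43 of 92 for Mcm6 and 26 of 62 for Gzmk. Mcm6 was found in the most Penk-positive cells, 14 of 32. Pglyrp1, a peptidoglycan recognition protein, was in 13 of 32 with at most 9 of 36 molecules in 1, that same deepest cell. In fibroblast-like cells the rule named Igfbp3 at 3.99, Ndnf at 3.44, Angpt4 at 3.43, Cadm1 at 3.37 and Thbs1 at 3.05. Ndnf was the most spread of these, in 13 of 41 Penk-positive and 5 of 111 Penk-negative cells. Cadm1 had 31 of 51 molecules in the deepest of the cells. Iglc1, Myoc, Ighg2c and Ptch1 had 445 of 464, 204 of 273, 77 of 91 and 107 of 133 molecules in 1 cell each.

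Of 32 further genes associated with regulatory T cells, 13 had enough molecules to compare between Foxp3-positive and Foxp3-negative cells. Tnfrsf1b, a TNF receptor, at 1.12, Tigit, an inhibitory receptor, at 1.22 and Cd83 at 1.58 were higher past 1, and Gzmb and Socs2 were lower, with 0 molecules in the positive cells. Their median was 0.69. Lrrc32, which displays latent TGF-beta on regulatory T cells, was under the minimum but lay mostly here, with 13 molecules in 6 of 10 Foxp3-positive and 10 molecules in 9 of 369 Foxp3-negative cells. Of 12 genes of conventional T cells 8 were compared and 6 were lower. They include Il7r, the interleukin-7 receptor, at -2.07 and the factors Lef1 at -2.14, Satb1 at -1.87 and Tcf7 at -1.75. Ccr7 was higher at 2.26, with 30 molecules in 2 of the 10 cells. The list's median was -1.65. Of 14 genes of the opioid system 9 were detected and 3 compared, and Furin, Cpe and Ctsl, which process precursors, were lower at -1.24, -1.71 and -1.62 on 3, 1 and 1 molecules. Among opioid receptors Oprm1 had 10 molecules in 8 T-cell-like cells, all Foxp3-negative, and Oprd1, Oprk1 and Oprl1 had 0. Of 7 ligand genes of the receptors none had enough molecules to compare. Over all 3509 genes 10.8% were higher, 14.2% lower, and the median was 0.06.

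Between the pools, Tnfrsf4, Tnfrsf9 and Penk were lower past 1 in T-cell-like cells of the pool labelled Saa3-/-. Tnfrsf4 had 67 molecules in 30 of 184 cells and 19 in 14 of 195, at 72.6 and 23.4 CPM, a log2 ratio of Saa3-/- over wild-type of -1.61 (-2.45 to -0.88). Tnfrsf9 had 86 and 26 molecules, at 93.2 and 32.0 CPM or -1.52 (-2.23 to -0.89). Penk had 142 and 9, at 154 and 11.1 CPM or -3.72 (-4.95 to -2.83). For these 3 the intervals of the pools do not overlap, nor do they for Il2ra, Ikzf2 and Ctla4, which did not pass 1. Il2ra stood at -0.71 (-1.07 to -0.36), Ikzf2 at -0.62 (-0.96 to -0.29) and Ctla4 at -0.34 (-0.57 to -0.11). Icos stood at -0.25 (-0.48 to -0.03) and Tnfrsf18 at -0.25 (-0.92 to 0.39). Foxp3, at 15 and 5 molecules, was under the minimum of 50 molecules, with a ratio of -1.31 whose interval includes 0 (-3.21 to 0.13). So 3 of 8 members passed 1 downwards and 0 upwards, beside 1.25% and 0.816% of 5762 genes, and Penk, one of the 3, was chosen on this contrast. The members' median was -0.66 and that of all genes 0.00. In such sums, fewer cells of a type and less RNA per cell cannot be told apart.

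The regulatory T-like cluster was formed with these genes and is almost wholly of 1 pool, so the values without it are a description. With 166 and 194 cells left, Tnfrsf4 stood at -0.47 on 28 and 19 molecules and Tnfrsf9 at -0.60 on 37 and 23. Ikzf2 turned to 0.10, and Tnfrsf18 to 0.07. Under the gate on T cell markers, which takes cells of other classes too, 1 member passed 1 downwards in place of 3, Tnfrsf4 at -1.20. There Penk stood at -0.92, Tnfrsf9 at -0.83, Ctla4 at -0.04 and Ikzf2 at 0.40. Without the cluster Il2ra stood at -0.71, and within gamma-delta T-like cells it stood at -0.61 (-1.02 to -0.22), at 606 and 395 CPM. Penk without the cluster had 38 and 9 molecules, a ratio of -1.95 (-3.24 to -0.93). No member passed 1 among those over the minimum, beside 1.09% of 5594 genes lower. In thymocyte-like cells Ikzf2 went the other way, with 13 and 77 molecules or 72.3 and 201 CPM, a ratio of 1.43, beside 6.47% of 2565 genes higher there. The class is 2 clusters with unlike shares of the pools, 8 and 49 cells at a median depth of 3244 molecules and 14 and 23 cells at 8910, and their part in this ratio was not tested.

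**Figure D5:**
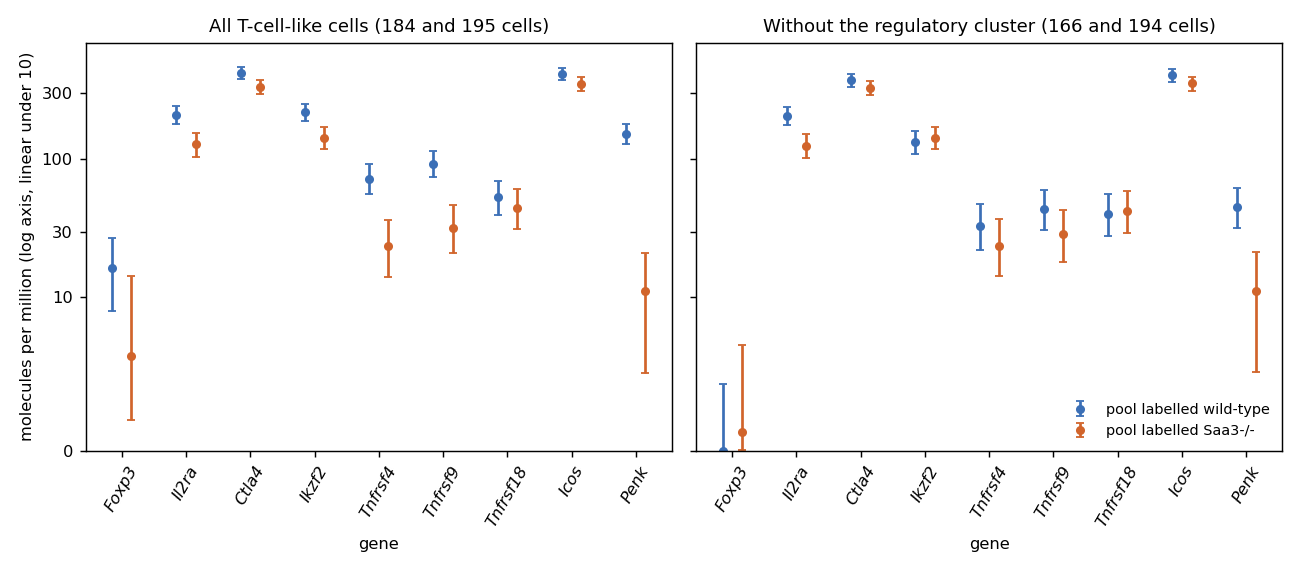
Level of each gene (CPM, log axis, linear under 10) in T-cell-like cells of the 2 pools, with all 184 and 195 cells at the left and without the regulatory T-like cluster, 166 and 194 cells, at the right. Points are levels and bars exact 95% Poisson intervals. Tnfrsf4, Tnfrsf9, Ikzf2 and Ctla4 part at the left and overlap at the right, and Penk and Il2ra part in both.

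Of the 32 associated genes, 22 were compared between the pools. Il1rl1 at -1.69, Klrg1, an inhibitory receptor, at -1.86 and Tigit at -1.28 were lower past 1 and 0 were higher, with a median of -0.42. Of the conventional T cell genes 9 were compared and 0 passed 1, with a median of 0.49 and Lef1 and Satb1 at 0.89 and 0.86. The other T-like cluster, which Lef1 and Satb1 lead, held 33 cells of the pool labelled wild-type and 72 of the pool labelled Saa3-/-, and its part in these values was not tested. Of the opioid genes 3 were compared and 0 passed 1. Over all 5762 genes 1.25% were lower and 0.816% higher past 1, and the median was -0.003. The part of the regulatory T-like cluster, almost wholly of 1 pool, in the values of these lists was not tested.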

How the data were processed

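Deposited molecule counts were used for 1 aortic arch capture of 2 tagged pools. Per the file headers, the authors' counts are whole molecules, told apart by molecular identifiers, for each gene in each cell, from the BD Rhapsody WTA pipeline 1.11.1, and the submitters' processing notes name R 4.3.1 and Seurat 4.3.0. The genotype of a pool is taken from its table's name. Tag multiplets (11) and undetermined cells (647) are not in the deposited count tables; no doublet caller was run. Cells were kept with at most 25% mitochondrial molecules and at least 200 genes.

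Counts were scaled to 10000 per cell and clustered with scanpy 1.11.5 and leidenalg 0.10.2 (2000 variable genes, Saa3 left out, 30 components, 15 neighbours, resolution 1). A cluster was named where at least 3 markers lay in 25% of its cells with a mean z of at least 0.5, and the regulatory T-like cluster where at least 6 of the 8 genes did. This rule was revised after the clusters were seen. The 9 genes and all lists were chosen with earlier results of these data known. The thinning, the molecule minimums and the limit of 10 Penk molecules were set after the values were seen.

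Levels are sums of counts as CPM, and ratios use a pseudocount of 0.5 molecules. Counts of genes past 1 and medians use ratios between pools on at least 50 molecules, and ratios between cells with and without Foxp3 or Penk on at least 100; a ratio on fewer is printed with its molecules and stays out of those counts. Intervals are exact Poisson for sums and Clopper-Pearson for shares. Named genes are the 10 with the largest ratio among those with at least 20 molecules in positive cells, in at least 20% of them. One of these genes and one detail of the treatment are not reported here. With 1 sample a group no test was made. The ratio script was tested on simulated data. Depth per cell ran from 1581 to 55599 molecules, which limits what a 0 can show.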

Additional observations from a re-analysis of the deposited data

How the results depend on the processing

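Of 110 alternatives to the leading values, 91 kept them, and of 190 for single genes 148 did. A value was kept if it stayed within its interval. Counts of members past 1 have no interval and were kept if equal or close to the main count. None turned a called value to the other sign. With a cell positive only at 2 molecules, Foxp3 was in 1.63% of T-cell-like cells of the pool labelled wild-type, and without the regulatory T-like cluster in 0%. Without cells that hold 3 markers of another lineage, which leaves 146 T-cell-like and 36 fibroblast-like cells, it was in 0% for the pool labelled Saa3-/-. Without the regulatory T-like cluster 1 Foxp3-positive T-cell-like cell was left and it held Penk, 100%. The share of Penk molecules in T-cell-like cells was 73.0% with no filter and a marker gate and 73.2% with the gate alone, which takes 50 cells of fibroblast-like clusters. It was 55.9% without mixed-lineage cells, 59.3% thinned, 37.1% without the highest cell of each pool and 25.5% without the 5 highest. The share in fibroblast-like cells was 32.1% at resolution 0.5, 9.04% without mixed-lineage cells and 28.6% thinned. The Penk ratio of the pools was -0.91 with no filter and the gate, -0.92 with the gate and -1.95 without the regulatory T-like cluster. Members lower past 1 numbered 1, 1 and 0 under those 3 settings. Apart from what these settings leave out or add, the cause was not tested. The settings without the cluster, without the deepest cell, with thymocyte-like cells, with a mean z of 1 and with a minimum of 20 molecules were chosen after seeing the data. Leaving out a replicate was not possible with 1 pool each. No paired analysis was possible because each group has 1 sample.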
